A study of Mus musculus with 12 samples.

Results

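MMERVK and RLTR10 elements are mouse endogenous retroviruses of the ERVK family, a group of retrotransposons bounded by long terminal repeats. They were followed here in the RNA of mouse embryos at the 2-cell stage. The members were all repeat names of the ERVK family that begin with MMERVK or RLTR10, which gave 15 of the 18538 names counted and 15 of the 283 ERVK names. By their names, 5 members are internal parts (ending in -int) and 10 are terminal repeats.

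An internal part holds the gag, pro and pol genes of the former virus. The terminal repeat on either side carries the promoter and the signal that ends the transcript, so a single transcript of a complete copy holds both kinds of sequence. Many copies have lost their internal part by recombination and survive as a lone terminal repeat, which can also be transcribed from a neighbouring gene. MMERVK10C is among the ERVK elements that gain transcripts in mouse embryonic stem cells when the silencing machinery of repressive histone H3 methylation is removed. Kdm4a encodes a demethylase that takes methyl groups off lysines of histone H3.

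The embryos were of the C57BL/6 strain at 1.5 days after fertilization. Oocytes were either wild-type or Kdm4a knockout, and sperm was Kdm4a knockout in both cases. WT (m+/p-) embryos, called WT below, therefore lacked the paternal allele, and Kdm4a knockout (m-/p-) embryos, called KO, lacked both alleles. Each genotype had 6 libraries of total RNA. The contrast is thus of the maternal allele and of what the oocyte stored from it, and other differences between the 2 kinds of oocyte cannot be told apart from that. Fewer transcripts per cell and fewer cells that make them cannot be told apart either. The labels do not describe the knockout allele or say how many embryos and females stand behind a library, so p-values measure the spread between these libraries.

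Values are read counts per repeat name, summed over all copies in the genome. Library totals ran from 7952526 to 18902360 counts, and member counts from 25947 to 66120 per library. MERVL-int is the internal part of the retrovirus whose transcripts mark the 2-cell stage. It made up 2.48% of the counts or more in each of the 12 libraries, so the stage marker was present throughout. Its share was 4.42% or more in every WT library and 4.27% or less in every KO library. The ranges of the genotypes were also apart for MT2_Mm, and overlapped for MTA_Mm and MTA_Mm-int. Whether both genotypes were at the same point of the stage was not tested. On principal components of all tested repeats, WT replicate 2 was the extreme library on the first and KO replicate 5, which had the fewest counts, on the second. They were kept, and values without them are given beside the results that they moved most. No gene was counted, so the genotype labels could not be checked through Kdm4a.

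All members together took a small part of the repeat RNA. Their share averaged 0.306% ± 0.0447 over WT and 0.316% ± 0.0207 over KO libraries (SD, n = 6). WT libraries ran from 0.259% in replicate 2 to 0.370% in replicate 5, and KO libraries from 0.291% to 0.337%, inside the WT range. On the log2 scale KO was 0.05 higher, and this became 0.0095 without WT replicate 2 and -0.0004 without both WT replicate 2 and KO replicate 5. Internal names supplied most of these reads, averaging 0.219% ± 0.0331 over WT and 0.225% ± 0.0148 over KO libraries, against 0.0874% ± 0.0135 and 0.0903% ± 0.00813 for terminal names (SD, n = 6). The difference for terminal names, 0.06 on the log2 scale, became -0.021 without WT replicate 2. Internal parts are longer than terminal repeats and copy numbers differ, so these amounts do not compare levels per element.

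The denominator mattered for that comparison, and the LTR class includes MERVL-int, whose share of all counts was lower in KO. Within the LTR class the members' share averaged 0.550% ± 0.0968 over WT and 0.665% ± 0.0722 over KO libraries, while within the ERVK family it averaged 6.37% ± 0.488 over WT and 5.99% ± 0.354 over KO libraries (SD, n = 6). The member share of ERVK counts was highest in WT replicate 5, at 7.19%, and lowest in KO replicate 1, at 5.52%. The ranges of the 2 groups overlapped for each of the 3 denominators.

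To compare single names, counts were scaled between libraries with TMM factors and given as normalised CPM. Fold changes below are KO over WT on the log2 scale from edgeR's quasi-likelihood test, with p-values adjusted by Benjamini-Hochberg over all 3312 repeats that passed a filter on low counts. All 15 members passed that filter. None of the 15 passed an adjusted p of 0.05, while 1.42% of all tested repeats did (1.27% lower and 0.151% higher in KO). At an unadjusted p under 0.05, 6 members had lower values in KO and 0 higher ones, against 7.91% and 5.5% of all tested repeats. DESeq2 placed 3 members lower at an adjusted p under 0.05, against 3.83% of all tested repeats, and limma-voom with quality weights 2, against 1.9%, with 0 members higher by either tool.

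The 15 log2 fold changes were all below 0, from -0.54 to -0.02 with a median of -0.25, whereas 48.8% of all tested repeats lay below 0 around a median of 0.01. That sign depended on the scaling. With scaling by total counts the median of all repeats moved to 0.32, the members ran from -0.22 to 0.31 with a median of 0.06, and 6 of 15 remained below 0. On either scale the members' median was below that of all repeats. Below, the TMM scale is used, on which 0 stands near the middle of all repeats.

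**Figure D1:**
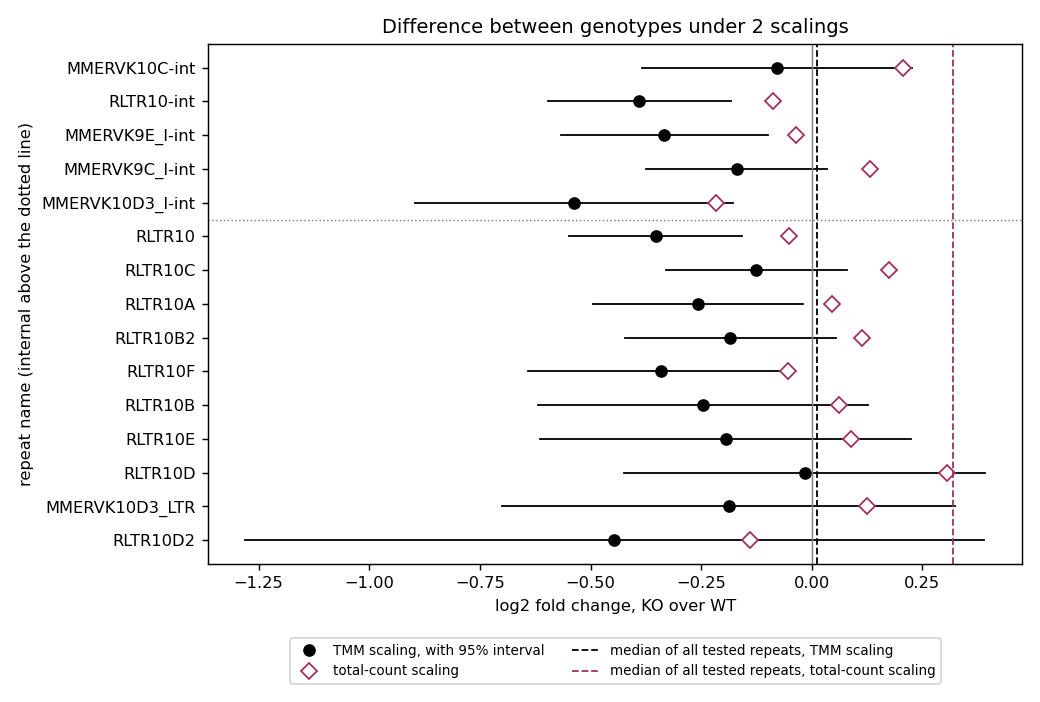
Log2 fold change of each member, KO over WT, on the x axis. Filled points with 95% intervals use TMM scaling, open diamonds total-count scaling, and dashed lines give the median of all tested repeats under each (0.01 and 0.32). All 15 filled points lie below 0, and 9 diamonds lie above 0.

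Among the internal parts, RLTR10-int came nearest to the threshold. Its level in WT ran from 599.8 to 713 normalised CPM with a median of 682, and in KO from 407 to 590.1 with a median of 523. On this TMM scale the highest KO library was under the lowest WT library. Such a gap was found for 1 of the 15 members and 1.39% of all tested repeats, and the opposite gap for 0 members and 0.725% of all. KO replicate 1 was the lowest library, and WT replicate 2 and KO replicate 6 were the neighbours across the gap. TMM factors ran from 0.767 to 0.977 over WT and from 0.978 to 1.26 over KO libraries. Without them KO replicate 6 lies above WT replicate 2, so the gap is not present on total counts. Mean levels were 674 ± 43.6 over WT and 515 ± 77.6 over KO libraries (SD, n = 6). The log2 fold change was -0.39, with a 95% interval from -0.60 to -0.18 (standard error 0.10, edgeR adjusted p = 0.0568).

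This value sat at the border of the call. It passed with DESeq2 (adjusted p = 0.00766) and with limma-voom (0.0178). It also passed when the 1100 rows of LTR, LINE, SINE and DNA elements were fitted alone (edgeR adjusted p = 0.00780). Of the fits that left out a single library, it passed only without KO replicate 2 (edgeR adjusted p = 0.0418), and the others reached 0.123. With no filter it did not pass (edgeR adjusted p = 0.203). Under total-count scaling its log2 fold change was -0.09 (edgeR adjusted p = 0.665).

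MMERVK10C-int, the internal part with the most member reads, showed little difference between the genotypes. WT libraries ran from 641 to 1006 normalised CPM with a median of 775, and KO libraries from 537 to 968 with a median of 792. The groups overlapped almost fully, with 3 of 6 KO libraries below the WT median. The log2 fold change was -0.08 (standard error 0.14, 95% interval -0.38 to 0.23, edgeR adjusted p = 0.894), so differences of either sign inside that interval are not excluded. Leaving out KO replicate 1, its lowest library, moved the value to 0.004.

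MMERVK10D3_I-int, an internal part of the same MMERVK10 group, had the lowest fold change of all members. It ran from 122 to 294 normalised CPM in WT with a median of 182, and from 116 to 165 in KO with a median of 131. The WT median exceeded each of the 6 KO libraries, yet WT replicate 1 was as low as the KO libraries and WT replicate 2 stood highest. The log2 fold change was -0.54 (standard error 0.17, 95% interval -0.90 to -0.18, edgeR adjusted p = 0.131). DESeq2 gave an adjusted p of 0.0353, and without WT replicate 2 and KO replicate 5 the value was -0.40 (edgeR adjusted p = 0.251).

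The pair of MMERVK9 internal parts did not pass either. MMERVK9E_I-int ran from 385 to 538 normalised CPM in WT (median 433) and from 317 to 435 in KO (median 337), a difference of -0.33 in log2 units (standard error 0.11, edgeR adjusted p = 0.154). Of its KO libraries, 5 of 6 were under the WT median, and KO replicate 2 reached into the middle of the WT range. MMERVK9C_I-int ran from 253 to 351 in WT (median 306) and from 233 to 301 in KO (median 285), a difference of -0.17 (standard error 0.10, edgeR adjusted p = 0.477). For this name the WT median exceeded each of the 6 KO libraries, but WT replicate 6 was lower than 4 of them.

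**Figure D2:**
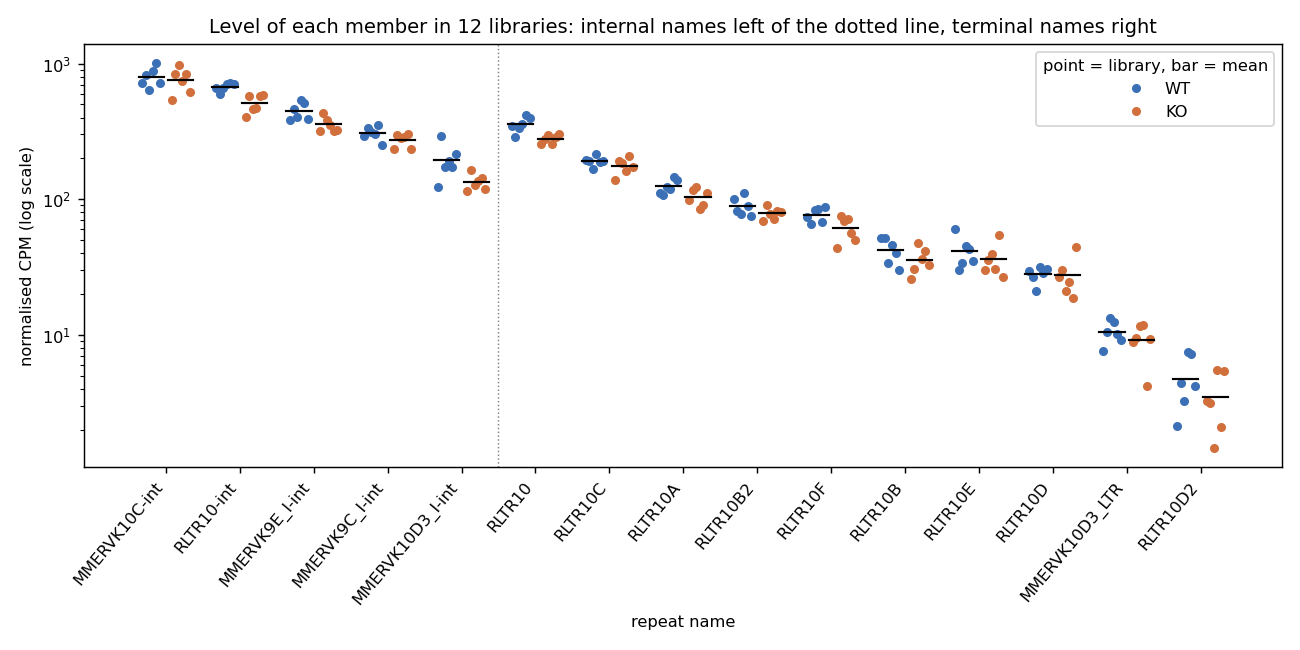
Normalised CPM of each member (y axis, log scale) in the 6 WT and 6 KO libraries; points are libraries and bars are group means. On this TMM scale the 2 groups are separate for RLTR10-int and overlap for the other 14 names. Levels are not per length, so the order of the names is not an order of expression.

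Among the terminal repeats, RLTR10 was the name nearest to the threshold. WT libraries ran from 285 to 415 normalised CPM with a median of 354, and KO libraries from 254 to 304 with a median of 282. Each of the KO libraries was under the WT median, and the overlap came from WT replicate 2, whose level of 285 was among those of the KO libraries. The log2 fold change was -0.35 (standard error 0.09, 95% interval -0.55 to -0.16, edgeR adjusted p = 0.0643). It passed with DESeq2 (adjusted p = 0.00839) and with limma-voom (0.0212). Of the fits that left out a single library, it passed only without WT replicate 2 (edgeR adjusted p = 0.0329), and the others reached 0.158. With no filter it did not pass (edgeR adjusted p = 0.237), and it was -0.05 under total-count scaling (edgeR adjusted p = 0.830).

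RLTR10A and RLTR10F were the other terminal names with an unadjusted p under 0.05. RLTR10A ran from 108 to 147 normalised CPM in WT (median 121) and from 85.3 to 122 in KO (median 105), a difference of -0.26 in log2 units (standard error 0.11, edgeR adjusted p = 0.312). RLTR10F ran from 65.6 to 87.6 in WT (median 78.0) and from 43.8 to 75.0 in KO (median 62.7), a difference of -0.34 (standard error 0.14, edgeR adjusted p = 0.284). In both names the upper KO libraries lay within the WT range.

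RLTR10C, the terminal repeat usually paired with MMERVK10C, had a similarly small difference. It ran from 168 to 214 normalised CPM in WT (median 192) and from 139 to 208 in KO (median 178), a difference of -0.12 in log2 units (standard error 0.10, 95% interval -0.33 to 0.08, edgeR adjusted p = 0.635). RLTR10B, a group of terminal repeats known as enhancers in male germ cells, ran from 30.2 to 52.0 in WT and from 25.8 to 47.7 in KO, a difference of -0.25 on the log2 scale (edgeR adjusted p = 0.603). The related RLTR10B2 ran from 75.7 to 111 in WT and from 69.1 to 90.7 in KO, with -0.18 (edgeR adjusted p = 0.520). All 3 names overlapped between the genotypes.

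The remaining terminal names were rare and variable. Of these, RLTR10E was near the level of RLTR10B, whose 95% interval ran from -0.62 to 0.13. RLTR10E had 253 to 846 counts per library, a log2 fold change of -0.19 and a 95% interval from -0.61 to 0.22. RLTR10D had 161 to 797 counts, a value of -0.02 and an interval from -0.42 to 0.39; KO replicate 6 was its highest library at 44.1 normalised CPM, and the other KO libraries lay between 18.8 and 30.1. MMERVK10D3_LTR had 36 to 226 counts, with -0.19 and an interval from -0.70 to 0.32, and RLTR10D2 had 18 to 134 counts, with -0.45 and an interval from -1.28 to 0.39. Without WT replicate 2 and KO replicate 5, RLTR10E had a value of -0.41, RLTR10D 0.06 and MMERVK10D3_LTR -0.045, and the last was -0.043 without KO replicate 5 alone. Intervals this wide do not exclude moderate differences of either sign for these 4 names.

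No difference between internal and terminal names was detected in the contrast of the genotypes. The median log2 fold change was -0.33 over the 5 internal and -0.22 over the 10 terminal names, and 3 names of each kind had an unadjusted p under 0.05. The summed internal counts were 2.52 ± 0.267 times the summed terminal counts in WT and 2.50 ± 0.179 times in KO (SD, n = 6). WT replicate 2 had the highest such ratio, at 2.95, and WT replicate 1 the lowest, at 2.22, so the KO libraries lay inside the WT range. The internal sum includes the MMERVK9 names, and no terminal member carries that name, so the sums are not of matched parts.

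Ratios between names within a library need no scaling, and 5 of them were tested by exact permutation of the 12 libraries (two-sided, adjusted over the 5). The log2 ratio of MMERVK10C-int to RLTR10C averaged 2.05 ± 0.20 over WT and 2.09 ± 0.20 over KO libraries (± SD, 6 each; exact permutation p = 0.723, adjusted p = 0.723). The ratio of RLTR10-int to RLTR10 averaged 0.93 ± 0.11 over WT and 0.87 ± 0.18 over KO libraries (± SD, 6 each; exact permutation p = 0.528, adjusted p = 0.660). For both pairs 3 or fewer KO libraries were under the WT median, and the difference between the group means was smaller than the SD of either group.

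The third pair was measured less precisely. The log2 ratio of MMERVK10D3_I-int to MMERVK10D3_LTR averaged 4.18 ± 0.42 over WT and 3.93 ± 0.61 over KO libraries (± SD, 6 each; exact permutation p = 0.416, adjusted p = 0.660). KO replicate 5 had the highest ratio of all 12 libraries, at 5.08, where MMERVK10D3_LTR had its lowest count of 36. The difference between the groups, -0.26, was -0.49 without KO replicate 5 and -0.13 without WT replicate 2, and passed in neither case (exact permutation, adjusted p = 0.141 and 0.784). The counting error alone reached 0.24 on the log2 scale for this ratio.

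**Figure D3:**
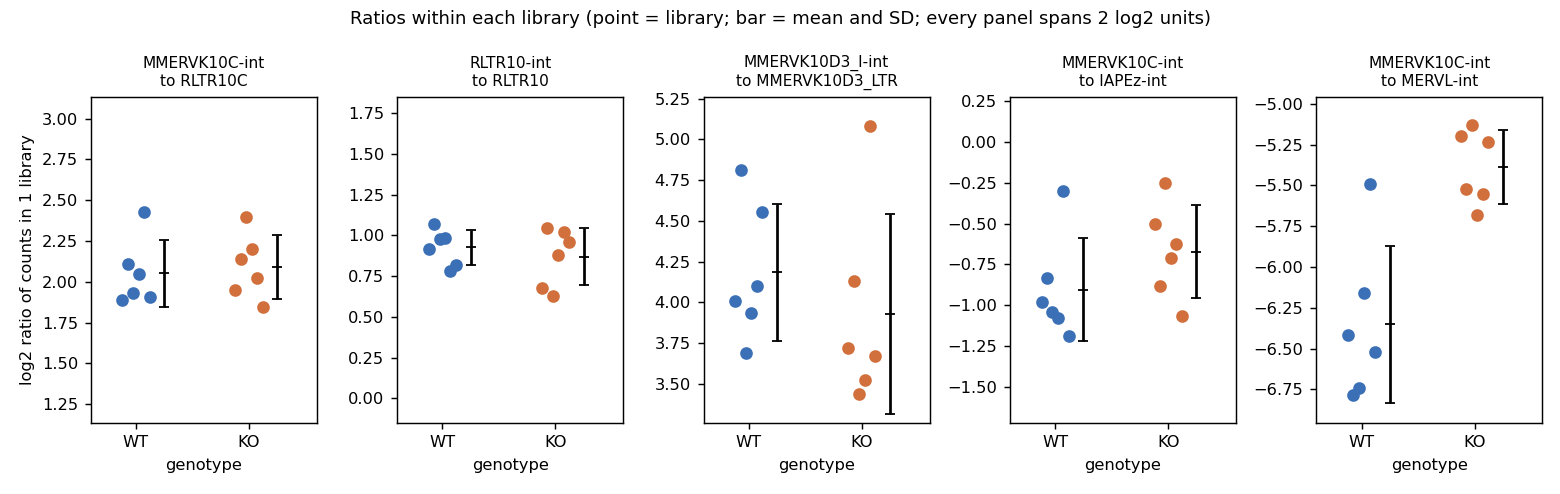
Log2 ratio of counts within each library (y axis) for 5 pairs of names, with points for the 6 WT and 6 KO libraries and bars for mean and SD; every panel spans 2 log2 units. The 3 internal to terminal pairs overlap between genotypes, while in the last panel 5 of 6 WT libraries lie below all KO libraries.

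Intracisternal A particles, or IAP, are the ERVK elements most often studied in mouse, and their 25 rows were the nearest group for comparison. Their median log2 fold change was -0.34, with 24 of 25 below 0 and 2 called lower, against a median of -0.25 with 15 of 15 below 0 for the MMERVK and RLTR10 names. The other 234 tested ERVK rows had a median of -0.05, with 147 below 0, 5 called lower and 1 higher. The log2 ratio of MMERVK10C-int to IAPEz-int, the main internal part of IAP, averaged -0.90 ± 0.32 over WT and -0.67 ± 0.28 over KO libraries (± SD, 6 each; exact permutation p = 0.212, adjusted p = 0.530). In 5 of 6 KO libraries the ratio was above the WT median, and WT replicate 5 was as high as the KO libraries. The value was 0.35 higher in KO when WT replicate 5 was left out, against 0.23 with it, and did not pass in either case (exact permutation, adjusted p = 0.0866 without it).

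MMERVK10C-int was also set against MERVL-int. The log2 ratio of MMERVK10C-int to MERVL-int averaged -6.35 ± 0.48 over WT and -5.39 ± 0.23 over KO libraries (± SD, 6 each), higher in KO by 0.97 (exact permutation p = 0.00866, adjusted p = 0.0433). Each of the 6 KO libraries was above the WT median, and WT replicate 5, at -5.49, was the WT library that lay among them. On the TMM scale the terms of this ratio had log2 fold changes of -0.08 for MMERVK10C-int and -1.04 for MERVL-int (edgeR adjusted p = 0.0159 for MERVL-int). On that scale the difference lay mostly in MERVL-int, so the ratio says little about the members. It was also chosen with earlier results of these data known, so its p-value is not independent evidence. The call held without WT replicate 5 (exact permutation, adjusted p = 0.0216) and was lost without each of the other 11 libraries (adjusted p from 0.0649 to 0.0866) and without both WT replicate 2 and KO replicate 5 (0.119), while the difference stayed between 0.88 and 1.14.

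Members also differed in how closely they followed each other from library to library. Closeness was measured as the SD over the 12 libraries of the log2 ratio of 2 names' counts, so that a small value means a fixed ratio. The closest pairs were RLTR10 with RLTR10A (SD 0.13), RLTR10B2 with RLTR10C (0.14) and RLTR10-int with RLTR10 (0.14). Counting error alone would give 0.04, 0.05 and 0.03. Near-identical names may share reads, and how the authors assigned reads that match several names was not stated in the labels.

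Closeness was similar within and between the 2 kinds of name. Over pairs with at least 100 counts in every library, the median SD was 0.28 for the 10 pairs of internal names, 0.29 for the 40 mixed pairs and 0.31 for the 28 pairs of terminal names. MMERVK10C-int kept a closer ratio to MMERVK9C_I-int (SD 0.19) and RLTR10C (0.19) than many names did. MMERVK10D3_I-int with RLTR10E (0.57) and RLTR10D with RLTR10E (0.56) were the loosest of these pairs.

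**Figure D4:**
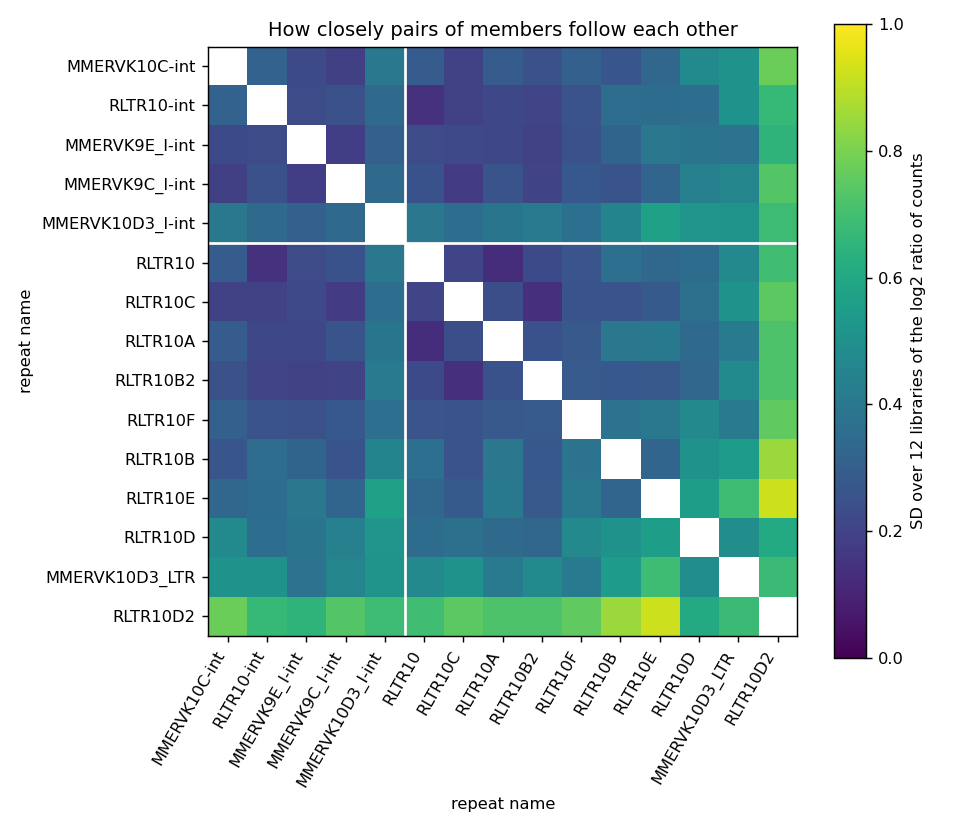
SD over 12 libraries of the log2 ratio of counts for each pair of members, as colour from 0 (dark) to 1 (bright); internal names come before the white lines. RLTR10, RLTR10A and RLTR10-int form dark cells with each other (SD 0.13 to 0.22), as do other pairs such as RLTR10B2 with RLTR10C (0.14). RLTR10D2, with as few as 18 counts, is bright against every other name.

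Names outside the group that followed the leading members were found with the same measure on normalised CPM, over 840 LTR, LINE, SINE and DNA rows with a mean of at least 10. For MMERVK10C-int these were L1Lx_II (SD 0.14), L1MdN_I (0.15), Lx3C (0.16), the ERVK internal part RMER16-int (0.16) and Lx2B2 (0.16), against a median of 0.35 over the 840 rows. The other 4 of these 5 are LINE-1 names, and their log2 fold changes lay between -0.04 and 0.04, against -0.18 for RMER16-int. For RLTR10 they were the terminal repeat MT2B1 of the ERVL family (SD 0.10), RLTR45 (0.14), RLTR1A2_MM (0.16), BGLII (0.16) and RLTR30D2_MM (0.17), against a median of 0.34. The log2 fold change of MT2B1, -0.36, was beside the -0.35 of RLTR10 (edgeR adjusted p = 0.0643 for each). Those of RLTR45, RLTR1A2_MM, BGLII and RLTR30D2_MM were nearer to 0, from -0.22 to -0.16. Libraries of both genotypes entered this measure, so a small SD favours names with like fold changes by construction. It was not tested.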

How the data were processed

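The authors deposited, for each of 12 libraries, an estimated count for every repeat name together with its class and family. All 12 files held whole numbers (0 held another value), so rounding changed nothing. Per the submitters' processing notes, the build was mm10 and Trimmomatic 0.32 and edgeR were used, in roles not stated. Not given in the sources used here are the aligner, the repeat annotation, the use of strand and the handling of reads that match several names. The deposited tables are titled as counts of unique and fractional kind, with no account of how these enter a value. Groups and replicate numbers came from the sample titles; file names number the libraries of each group in reverse order, which leaves the same libraries sharing a number.

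EdgeR 4.0.16 (R 4.3.3) was run on all 12 libraries: filterByExpr with the group, library sizes from all rows, TMM factors, and the quasi-likelihood F test with genotype as the only term. Standard errors came from the F statistic. The 95% intervals came from these and edgeR's total degrees of freedom (14.3), which add a prior to the residual ones. Adjustment was over the 3312 tested repeats. Ratios were compared over all 924 regroupings of the libraries (scipy 1.17.1). The edgeR and permutation steps were checked on simulated or constructed values. Replicates differed beyond sampling noise in all 30 pairs within groups (chi-square per degree of freedom 25.0 to 143.8). The reads carry no molecular identifiers, so counting errors cover reads and not molecules.

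All members were described. The names alike to MMERVK10C-int and RLTR10, the members of each kind with the most counts, were the 5 rows with the smallest SD of the log2 ratio. The members, lists and ratios were chosen with earlier results of these data known. Alternatives were other scalings, tools (DESeq2 1.42.0, limma 3.58.1), filters, row sets and covariates, a replicate block, and left-out libraries. Consensus sequences of the repeats are not used here.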

Additional observations from a re-analysis of the deposited data

How the results depend on the processing

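Numbers of calls moved with the rows tested and the tool. The count of members called lower, 0 in the report, was 1 with TMM factors from LTR, LINE, SINE and DNA rows, 3 with a mean of at least 10 CPM, 4 with those classes fitted alone, 1 with library size as a covariate, 2 with limma-voom and 3 with DESeq2. It ran from 0 to 1 when single libraries were left out, with 1 call each without WT replicate 2 (RLTR10) and KO replicate 2 (RLTR10-int). The members called were RLTR10-int in each of the 6 settings with calls (other than those that left out libraries), RLTR10 in 4, MMERVK10D3_I-int in 3 and MMERVK9E_I-int in 1 (classes alone, edgeR adjusted p = 0.0413). No setting called a member higher. Members below 0 numbered 6 under total-count scaling, and 14 to 15 without single libraries. Over all 3312 tested repeats the calls were 42 lower and 5 higher. They were 17 and 1 of 10386 with no filter and 92 and 22 of 1447 with the mean filter, which tested 13 members. They were 95 and 31 of 1100 with the classes alone and 127 and 42 of 3312 with DESeq2. Lower calls were 58 with TMM factors from the 4 classes and 63 with limma-voom, again of 3312. In each of the 6 settings that called a member, a larger share of all tested rows was called lower than in the report. Lower calls were 67 with the covariate and 19 without both WT replicate 2 and KO replicate 5. Higher calls were 357 under total-count scaling (33 lower), 3 with RLE factors, 1 with the replicate block and 8 with limma-voom. Without single libraries, lower calls ran from 18 to 84 and higher calls from 1 to 9; lower calls were 21 and 18 without WT replicates 3 and 6, and 26, 84, 25 and 18 without KO replicates 1, 2, 5 and 6.

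Total-count scaling turned 9 members to positive log2 fold changes: MMERVK10C-int (0.21), MMERVK9C_I-int (0.13), MMERVK10D3_LTR (0.12), RLTR10A (0.046), RLTR10B (0.061), RLTR10B2 (0.11), RLTR10C (0.17), RLTR10D (0.31) and RLTR10E (0.088). RLTR10D was also above 0 with upper quartile factors (0.023), TMM from the 4 classes (0.0002), the mean filter (0.0013), the classes alone (0.0006), the covariate (0.024) and without both libraries (0.06), and ran from -0.20 to 0.072 without single libraries. MMERVK10C-int ran from -0.16 to 0.004 in the same way. The log2 ratio of MMERVK10C-int to RLTR10C, 0.04 higher in KO, ran from -0.019 to 0.12, being below 0 without KO replicate 3. The ratio to MERVL-int ran from 0.88 to 1.14 and was 0.91 without both libraries. The member share, 0.05 higher in KO on the log2 scale, was 0.29 higher as a share of the LTR class (0.28 for internal names) and -0.09 as a share of the ERVK family; it ran from 0.0095 (without WT replicate 2) to 0.11 (without WT replicate 5), and for terminal names from -0.021 to 0.10.

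Same-numbered libraries did not deviate together (correlations from -0.07 to 0.15 over 6 pairs, and 3 of 12 libraries correlated best with their own number), so the numbers were not taken as pairs. With the replicate block no member was called (RLTR10-int log2 fold change -0.40, edgeR adjusted p = 0.0728), and the ratio of MMERVK10C-int to MERVL-int, 0.97 higher in KO, had an exact sign-flip permutation p of 0.0625 (adjusted p = 0.3125); the smallest p that 6 pairs allow is 0.03125, which could not pass the adjustment here, so this test says nothing about stability. Causes of these shifts were not tested. Depth limits RLTR10D2 and MMERVK10D3_LTR.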

Other observations

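The following 4 ratios between members were chosen after their values were seen and are given without a test. The log2 ratio of RLTR10-int to MMERVK10C-int averaged -0.23 ± 0.23 over WT and -0.54 ± 0.33 over KO libraries (SD, n = 6), with 5 of 6 KO libraries below the WT median. KO replicate 3 had the lowest ratio, at -1.07, and KO replicate 6, at -0.06, lay among the higher WT libraries. The ratio of RLTR10 to RLTR10C averaged 0.89 ± 0.21 over WT and 0.68 ± 0.16 over KO libraries, and each of the 6 KO libraries was under the WT median. The ratio of MMERVK10D3_I-int to MMERVK10C-int averaged -2.08 ± 0.43 over WT and -2.48 ± 0.25 over KO libraries, again with 6 of 6 KO libraries below the WT median. The ratio of MMERVK9E_I-int to MMERVK9C_I-int averaged 0.54 ± 0.17 over WT and 0.38 ± 0.17 over KO libraries, with 5 of 6 below. The groups overlapped in each of these ratios.

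Single libraries also stood high or low across many members. WT replicate 4 was above the median of its group in 13 of 15 members and KO replicate 2 in 12 of 15, while KO replicate 1 was above it in 2 of 15 and was the lowest KO library in 8. No value passed the cutoff of Dixon's test for a lone outlier in the 48 groups of values checked. On the principal components of all tested repeats 2 libraries did stand apart from their group. WT replicate 2 lay at 57.6 on the first, against 1.98 or less for the other WT libraries. KO replicate 5 lay at 37.1 on the second, against 11.8 or less for the other KO libraries.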
